A study of Mus musculus with 6 samples.

Results

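The genes of cholesterol, fatty acid and phospholipid synthesis were examined in the lungs of *Igf1*-/- and *Igf1*+/+ mouse embryos. They are a list of 37 names, of which *Sc4mol* and *Msmo1* are the same gene, so that 36 genes were sought. A gene was taken from the array where the annotation gave a probe set that symbol alone, and it was read at the probe set with the highest mean over the 6 arrays. This gave 33 genes of the 12393 that the array holds by the same rule, 18 in the sterol pathway and 15 in fatty acid and phospholipid synthesis. *Insig1*, *Acat2* and *Acsl1* had no probe set that met the rule and were not analysed here.

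Total RNA of whole lungs at embryonic day 18.5, shortly before birth, was hybridised to arrays of mouse genes, with 3 biological replicates for each genotype and 1 array for each replicate. The embryos came from matings of heterozygous mice on the C57BL/6J background, and the labels name no agent. The methods describe delivery at this age by caesarean section, with the pups helped to breathe under a lamp for a short time before the lungs were taken, so that breathing and genotype cannot be told apart where the genotypes breathed differently. The *Igf1*-/- embryos carried a null *Igf1* gene in every cell from conception, whereas the *Igf1*+/+ embryos carried the intact gene and were otherwise of the same breeding. The labels mention pooled lungs and the methods separate samples, and it was not settled whether an array stands for 1 embryo. The p values therefore set the genotype difference against the spread between these samples, which may not be the spread between embryos.

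Cells make cholesterol from acetyl-CoA by the mevalonate pathway, which leads to squalene, lanosterol and then cholesterol. When the sterol content of the endoplasmic reticulum is low, SCAP escorts the transcription factor SREBP-2 to the Golgi, where it is cut and freed to activate the genes of the pathway, and INSIG proteins hold this complex back when sterol is plentiful. SREBP-1 acts mainly on the genes of fatty acid synthesis. In the lung before birth, alveolar type II cells make the phospholipids of surfactant, which need fatty acids and choline.

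Values are given as the log2 of RMA expression, where a step of 1 is a doubling, and a difference is the *Igf1*-/- mean minus the *Igf1*+/+ mean. *Sftpc*, which encodes a surfactant protein made by type II cells, was between 14.37 and 14.47 in the 6 arrays. *Igf1*, the inactivated gene, was 8.87, 8.99 and 9.38 in *Igf1*-/- lungs and 9.28, 9.85 and 9.65 in *Igf1*+/+ lungs, so that the groups overlapped at its brightest probe set. The difference was -0.51, and the paper lists *Igf1* among the down-regulated genes of its own array analysis. The sources used here do not say whether that probe set lies within the inactivated part, so the value checks little about the genotype. *Igf1*-/- replicate 2 stood apart in genes of liver, with *Alb* at 10.81 against 6.83 and 7.79 in the other *Igf1*-/- lungs and 8.15, 6.10 and 8.67 in *Igf1*+/+ lungs. The words rose and fell are kept for an adjusted p under 0.10 in limma, which 126 of 22626 probe sets reached (0.557%).

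The 33 genes gave no call between genotypes. In limma, 0 of 18 sterol genes and 0 of 15 fatty acid and phospholipid genes had an adjusted p under 0.10 or under 0.20, against 0.597% and 2.72% of all genes. The lowest adjusted p was 0.22, of the desaturase gene *Fads2*. An unadjusted p under 0.05 was found for 0 sterol genes and for 3 fatty acid genes, *Fads2* and *Acly*, which had higher means in *Igf1*-/- lungs (7.04% of all genes), and *Elovl5*, which had a lower one (5.66%). In either direction it was 12.7% of all genes. In bulk tissue, fewer cells of a type and less RNA per cell cannot be told apart.

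Among the sterol genes, 7 had a higher and 11 a lower mean in *Igf1*-/- lungs, with a median difference of -0.03 on the log2 scale. The fatty acid and phospholipid genes were 10 higher and 5 lower, with a median difference of 0.05. Over all genes 60.6% had a higher mean in *Igf1*-/- lungs and the median difference was 0.03. The 95% intervals of all 18 sterol genes included 0, and they reached from -0.66 at *Cyp51* to 0.62 at *Fdps*. The upper of these bounds is a fold of 1.54 and the lower one a fold of 1.58. Smaller differences in that direction were not excluded for *Fdps* and *Cyp51*. At their brightest probe sets the intervals of the other sterol genes lay within these bounds. A dimmer probe set of *Idi1* reached beyond them, with a difference of -0.39 and an interval from -0.93 to 0.15.

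**Figure D1:**
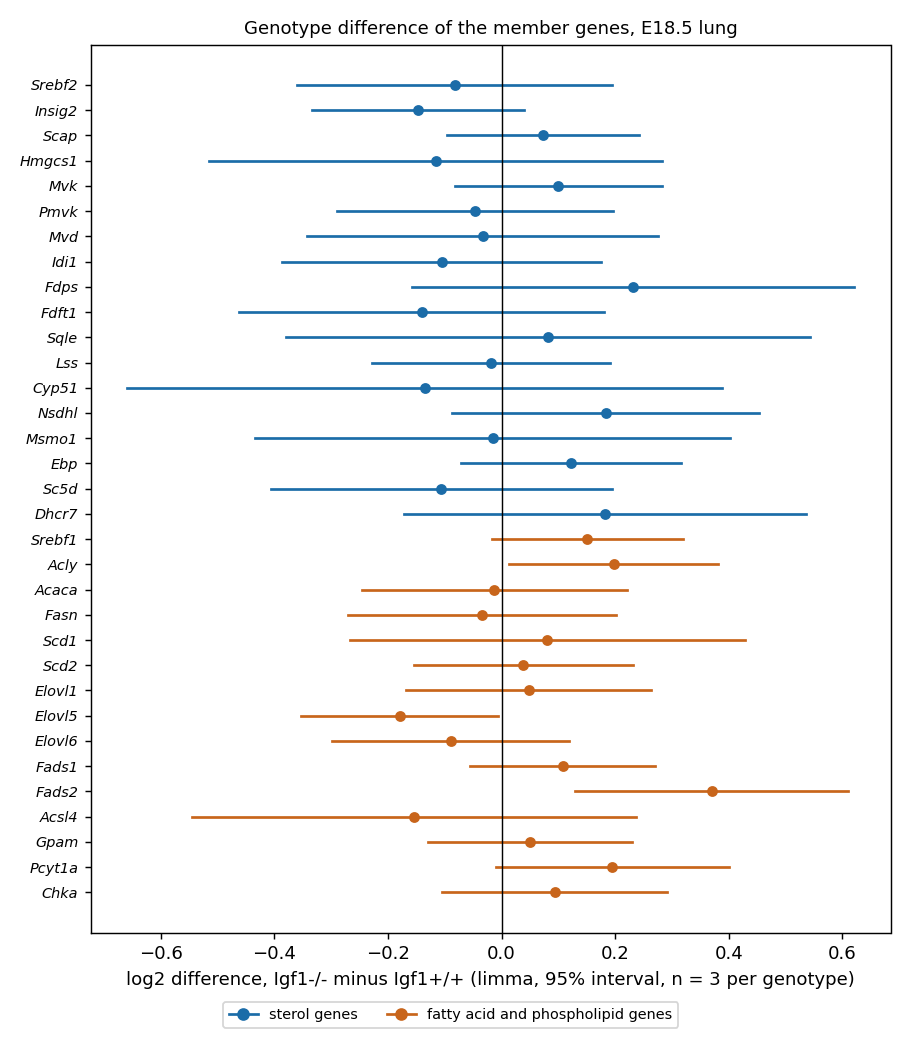
Log2 difference (*Igf1*-/- minus *Igf1*+/+, horizontal axis) of each of the 33 genes with its 95% interval from limma, n = 3 per genotype, sterol genes in blue and fatty acid and phospholipid genes in orange. The intervals of all 18 sterol genes and of 12 of the 15 others include 0, and those of *Acly*, *Fads2* and *Elovl5* do not.

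The sterol enzymes differed widely among lungs of the same genotype. In 14 of 15 of them, and in 8 of the 15 fatty acid and phospholipid genes, *Igf1*-/- replicates 1 and 2 were further apart than the means of the genotypes. The share over all genes was not computed, and single arrays vary more than group means. This pair also holds the high and the low array of these enzymes, so these counts alone do not set the enzymes apart. *Cyp51*, which removes a methyl group from lanosterol, was 7.32, 6.47 and 7.24 in *Igf1*-/- lungs and 6.81, 7.18 and 7.44 in *Igf1*+/+ lungs. *Msmo1*, a sterol methyl oxidase that acts after it, was 7.31, 6.54 and 7.08 in *Igf1*-/- lungs and 6.77, 7.04 and 7.17 in *Igf1*+/+ lungs. In both genes *Igf1*-/- replicate 2 and *Igf1*+/+ replicate 1 were the lowest of their genotype, and these 2 genes were chosen after their values were seen. The enzymes of the pathway shared this order. Each value was set against the mean of its own genotype, and *Igf1*-/- replicate 2 lay below it in 14 of 15 sterol enzymes (47.9% of all genes), while *Igf1*+/+ replicate 1 lay below it in 15 of 15 (53.7% of all genes). Both arrays were below in 14 of 15 enzymes, *Mvk* being the exception, against 26.3% of all genes. The lowest *Igf1*-/- value was that of replicate 2 in 13 enzymes (33.5% of all genes) and the lowest *Igf1*+/+ value that of replicate 1 in 12 (37.9%).

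The median deviation of the 15 enzymes was 0.15, -0.22 and 0.04 in *Igf1*-/- replicates 1, 2 and 3, and -0.22, 0.05 and 0.18 in *Igf1*+/+ replicates 1, 2 and 3. Thus 1 lung sample of each genotype was low across the pathway, and *Igf1*-/- replicate 1 (14 of 15 enzymes above its mean, against 46.3% of all genes) and *Igf1*+/+ replicate 3 (13 of 15, against 55.1%) were high. Between *Igf1*-/- replicates 1 and 2 the median enzyme differed by 0.38 and the largest difference was 0.86, a fold of 1.81. Between *Igf1*+/+ replicates 3 and 1 the median enzyme differed by 0.40 and the largest difference was 0.87, a fold of 1.82. The spread within genotype (SD) had a median of 0.22 over the 15 sterol enzymes, 0.11 over the 15 fatty acid and phospholipid genes and 0.11 over all genes. It was above the upper quartile of all genes, 0.15, in 12 of the 15 sterol enzymes and in 3 of the 15 others. The order of the arrays was noticed in these data, the enzymes share the arrays, and no test was made of it.

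**Figure D2:**
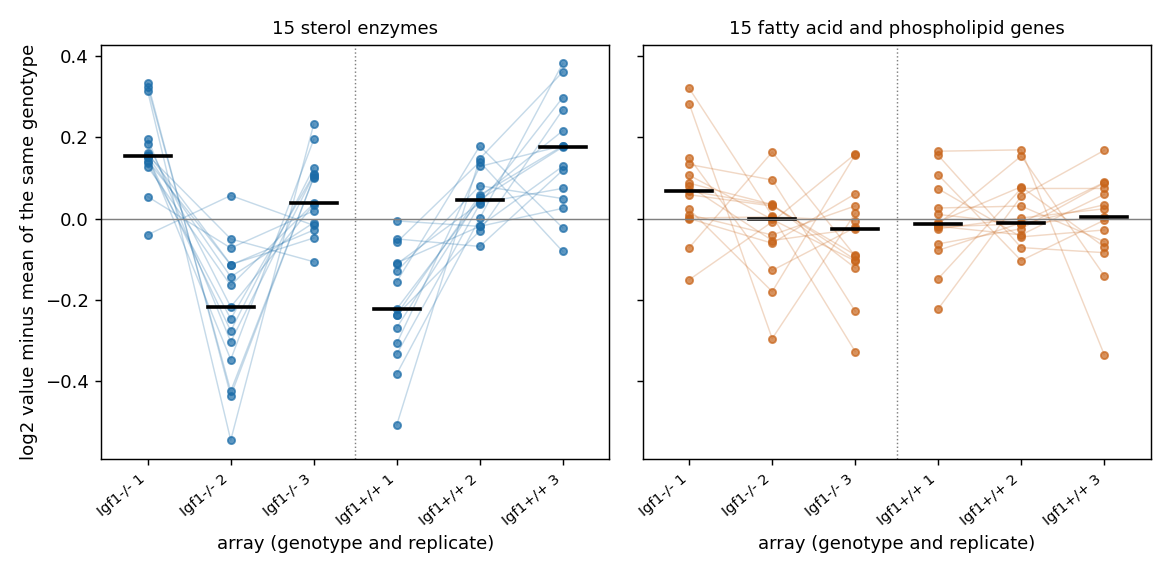
Deviation of each gene from the mean of its own genotype (vertical axis, log2 units) in each of the 6 arrays, for the 15 sterol enzymes and the 15 fatty acid and phospholipid genes, with a bar at the median and lines joining the values of a gene. The sterol enzymes lie mostly below 0 in *Igf1*-/- replicate 2 (median -0.22) and *Igf1*+/+ replicate 1 (median -0.22), and the other genes have medians between -0.03 and 0.07 in all 6 arrays.

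The low position in both arrays was found in 5 of 6 enzymes of the mevalonate part and in 9 of 9 enzymes from squalene to cholesterol, but in 0 of the 3 sterol regulators and in 4 of 15 fatty acid and phospholipid genes. It was also found in 10 of 15 further probe sets of the same sterol enzymes. Of 8 other genes listed under sterol synthesis it was found in 3, and of 11 genes of sterol uptake, transport and sensing in 1. These 8 include *Ggps1* and *Dhdds*, which belong to other branches of the mevalonate pathway and did not show it. Nor did *Tm7sf2*, *Lbr* and *Cyb5r3*. In *Igf1*-/- replicate 2 the genes of liver were also high, their summed linear value being 2993 against 316 and 455 in the other *Igf1*-/- lungs, but in *Igf1*+/+ replicate 1 it was 641, between the 236 and 758 of the other *Igf1*+/+ lungs. All 7 proliferation genes measured were below their genotype mean in both low arrays, and also in *Igf1*-/- replicate 1, where the sterol enzymes were high. The part of these markers in the array order was not tested.

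Promoter sequences are shown for *Hmgcs1*, *Idi1*, *Cyp51* and *Msmo1*, as examples from both parts of the sterol pathway picked after their values were seen, out of the 14 enzymes that were below their genotype mean in both arrays. They are also shown for *Fads2* and *Pcyt1a*, which had the largest differences among the 7 listed desaturases and elongases and among the 4 listed genes of fatty acid activation and phospholipid synthesis. They are the 180 bases before the start of the gene from RefSeq on GRCm38.p6, written 5′ to 3′ on the strand of the gene. Capitals mark matches to TCACNCCAC, the sterol regulatory element, and to CCAAT, a site of the factor NF-Y that works with SREBP, on either strand, so that CCAAT on the opposite strand is read as ATTGG. *Pcyt1a* has 3 promoters in the table and the first is shown.
Hmgcs1, chr13:119690171-119690350, plus strand: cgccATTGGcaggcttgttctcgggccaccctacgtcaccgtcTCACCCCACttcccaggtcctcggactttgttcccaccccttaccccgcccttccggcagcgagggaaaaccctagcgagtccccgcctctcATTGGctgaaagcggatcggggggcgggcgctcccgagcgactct
Idi1, chr13:8885426-8885605, plus strand: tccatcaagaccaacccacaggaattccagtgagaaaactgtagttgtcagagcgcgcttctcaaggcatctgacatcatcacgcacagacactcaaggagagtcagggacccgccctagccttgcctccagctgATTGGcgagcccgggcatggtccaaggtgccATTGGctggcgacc
Cyp51, chr5:4104698-4104877, minus strand: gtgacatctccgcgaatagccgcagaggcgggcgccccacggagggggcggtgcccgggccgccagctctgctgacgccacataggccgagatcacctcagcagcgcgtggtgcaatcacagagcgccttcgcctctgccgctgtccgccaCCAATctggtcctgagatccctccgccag
Msmo1, chr8:64733579-64733758, minus strand: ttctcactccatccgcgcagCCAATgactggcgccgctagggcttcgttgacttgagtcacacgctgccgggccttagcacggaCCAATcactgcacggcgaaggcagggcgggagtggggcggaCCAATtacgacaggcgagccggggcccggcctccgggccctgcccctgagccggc
Fads2, chr19:10101504-10101683, minus strand: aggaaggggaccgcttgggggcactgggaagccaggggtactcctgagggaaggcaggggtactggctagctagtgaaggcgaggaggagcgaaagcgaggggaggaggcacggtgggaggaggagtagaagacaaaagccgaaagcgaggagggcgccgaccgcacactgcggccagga
Pcyt1a, chr16:32430741-32430920, plus strand: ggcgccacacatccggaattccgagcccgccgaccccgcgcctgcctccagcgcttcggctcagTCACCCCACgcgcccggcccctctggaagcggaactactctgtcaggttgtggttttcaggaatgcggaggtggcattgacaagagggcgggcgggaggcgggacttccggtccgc

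In these windows *Hmgcs1* holds the sterol element 137 bases and CCAAT 176 and 45 bases before the start. *Msmo1* holds CCAAT at 160, 96 and 55 bases, *Idi1* at 45 and 14 bases and *Cyp51* at 29 bases. *Pcyt1a* holds the sterol element at 116 bases, and neither motif is found in the window of *Fads2*. A promoter was given for 27 of the 33 genes, and the motifs were searched from 250 bases before to 50 bases after the start. CCAAT was found in a promoter of 14 of 15 sterol genes and 7 of 12 fatty acid and phospholipid genes, against 42.3% of 9887 genes on the array. The 14 include *Srebf2*, *Insig2* and *Mvk*, which were not below their genotype mean in both low arrays. *Scap*, which was not either, had no match. A relation of the motif to the array order was not tested. By promoter it was in 14 of 21 and 8 of 18, against 37.4% of all 32851 promoters. The sterol element in this form was found in a promoter of 1 of 15 and 1 of 12 of these genes, against 1.5% of the genes on the array. By promoter it was in 1 of 21 and 2 of 18, against 1.24% of all promoters. Other forms of the sterol element were not searched, so the absence of a match does not mean that a promoter lacks one. These matches describe letters and not sites of binding.

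Among the regulators of the sterol pathway, *Srebf2*, which encodes SREBP-2, was 8.34, 8.61 and 8.33 in *Igf1*-/- lungs and 8.43, 8.35 and 8.75 in *Igf1*+/+ lungs. The groups overlapped, and the difference was -0.08 (SE 0.12, n = 3 per genotype), with an adjusted p of 0.81 in limma. *Insig2*, whose product retains the SCAP complex, was 8.49, 8.30 and 8.39 in *Igf1*-/- lungs and 8.62, 8.54 and 8.46 in *Igf1*+/+ lungs. Only 1 *Igf1*-/- value lay within the range of the *Igf1*+/+ lungs, and the difference was -0.15 (SE 0.08, adjusted p = 0.49). *Scap* was 8.44, 8.52 and 8.52 in *Igf1*-/- lungs and 8.35, 8.42 and 8.49 in *Igf1*+/+ lungs, overlapping, with a difference of 0.07 (SE 0.07, adjusted p = 0.71).

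In the mevalonate part, *Hmgcs1*, which condenses acetyl units into HMG-CoA, was 11.02, 10.27 and 10.80 in *Igf1*-/- lungs and 10.66, 10.99 and 10.79 in *Igf1*+/+ lungs. Its lowest value of the 6 was that of *Igf1*-/- replicate 2, and the difference of -0.12 (SE 0.18, adjusted p = 0.82) turned to 0.10 without that array. *Fdps*, which makes farnesyl diphosphate, was 8.69, 8.42 and 8.49 in *Igf1*-/- lungs and 7.92, 8.30 and 8.68 in *Igf1*+/+ lungs. *Igf1*+/+ replicate 1 was the lowest here, and the difference of 0.23 (SE 0.17, adjusted p = 0.61) was 0.04 without it and 0.42 without *Igf1*+/+ replicate 3. *Mvk*, *Pmvk*, *Mvd* and *Idi1*, the kinases, decarboxylase and isomerase of the pathway, had differences of 0.10, -0.05, -0.03 and -0.11.

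In the part from squalene to cholesterol, *Nsdhl*, a sterol dehydrogenase, was 8.49, 8.29 and 8.23 in *Igf1*-/- lungs and 7.92, 8.21 and 8.33 in *Igf1*+/+ lungs. *Dhcr7*, the last reductase of the route, was 7.12, 6.63 and 7.03 in *Igf1*-/- lungs and 6.48, 6.80 and 6.96 in *Igf1*+/+ lungs. Both genes had a difference of 0.18 (SE 0.12 and 0.16, adjusted p = 0.56 and 0.66) and groups that overlapped, and *Igf1*+/+ replicate 1 was the lowest array for both. Without it the difference was 0.07 for *Nsdhl* and 0.05 for *Dhcr7*. The other 7 enzymes, *Fdft1*, *Sqle*, *Lss*, *Cyp51*, *Msmo1*, *Ebp* and *Sc5d*, had differences between -0.14 at *Fdft1* and 0.12 at *Ebp*. At the brightest probe set the groups overlapped in all 18 sterol genes, whereas they did not overlap in 18.8% of all genes. At a dimmer probe set they did not overlap for *Mvk*, with a difference of 0.17, and for *Sc5d*, with one of -0.12 (adjusted p = 0.40 and 0.54 in limma).

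**Figure D3:**
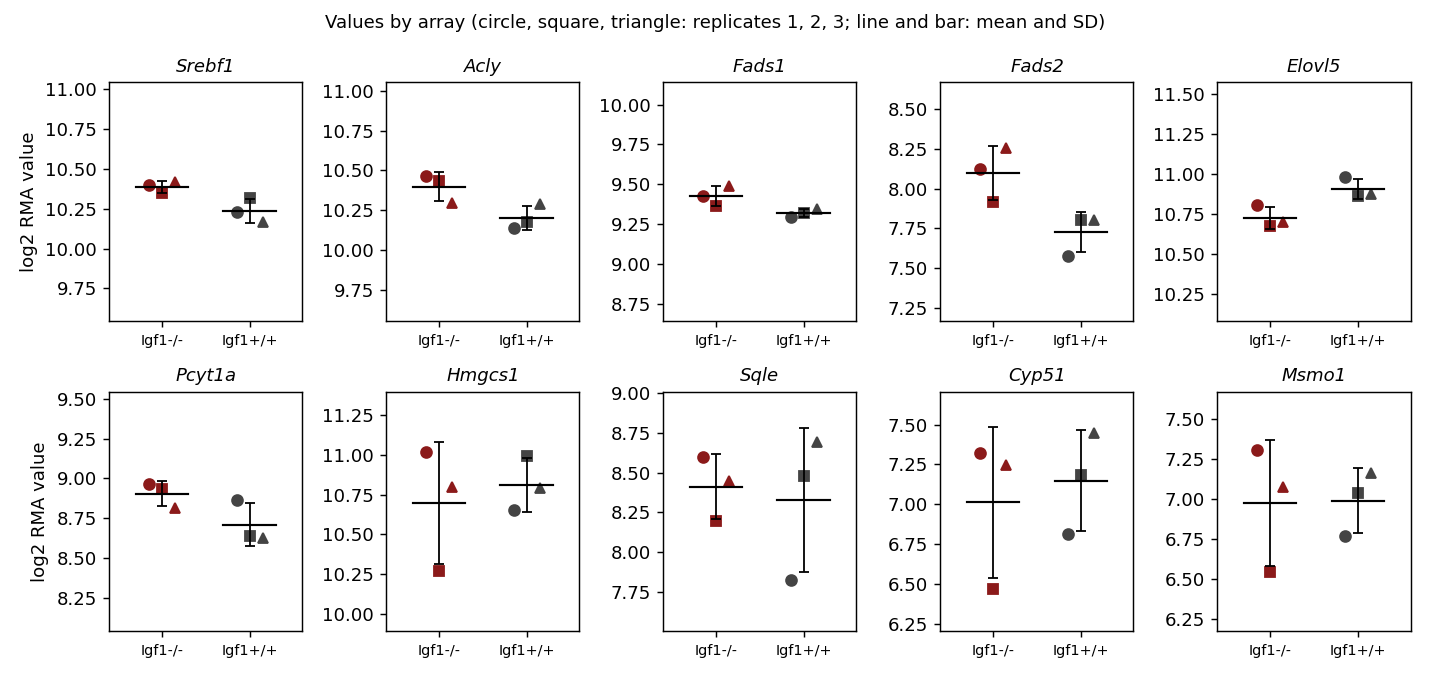
Log2 RMA value (vertical axis) of selected genes in each of the 3 *Igf1*-/- and 3 *Igf1*+/+ arrays, 1 point for each array, with a line at the group mean and a bar for the SD. The points of *Fads2*, *Acly* and *Elovl5* do not overlap between genotypes, and those of *Hmgcs1*, *Cyp51* and *Msmo1* do.

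The fatty acid genes were steadier among lungs of the same genotype, and in 5 of 15 the groups did not overlap, 4 higher (11.9% of all genes) and 1 lower (6.84%) in *Igf1*-/- lungs. *Srebf1*, which encodes SREBP-1, was 10.40, 10.35 and 10.42 in *Igf1*-/- lungs and 10.23, 10.31 and 10.17 in *Igf1*+/+ lungs, all 3 *Igf1*-/- values lying above. The difference was 0.15 (SE 0.07, adjusted p = 0.44). *Acly*, which makes cytosolic acetyl-CoA from citrate, was 10.47, 10.43 and 10.30 in *Igf1*-/- lungs and 10.14, 10.18 and 10.29 in *Igf1*+/+ lungs. The highest *Igf1*+/+ value lay just under the lowest *Igf1*-/- value, and the difference was 0.20 (SE 0.08, adjusted p = 0.37). *Fasn*, the fatty acid synthase itself, was 11.42, 11.38 and 11.06 in *Igf1*-/- lungs and 11.30, 11.28 and 11.38 in *Igf1*+/+ lungs, and its difference of -0.03 (SE 0.10) turned to 0.08 without *Igf1*-/- replicate 3. *Acaca*, the carboxylase before it, had a difference of -0.01.

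*Fads2*, the desaturase that starts the synthesis of long polyunsaturated fatty acids, had the largest difference of the 33 genes. It was 8.12, 7.92 and 8.25 in *Igf1*-/- lungs and 7.58, 7.80 and 7.80 in *Igf1*+/+ lungs, and all *Igf1*-/- values lay above all *Igf1*+/+ values. The difference was 0.37 (SE 0.11, 95% interval 0.13 to 0.61, adjusted p = 0.22). *Fads1*, the desaturase that acts after it, was 9.43, 9.36 and 9.49 in *Igf1*-/- lungs and 9.29, 9.32 and 9.34 in *Igf1*+/+ lungs, also without overlap, with a difference of 0.11 (SE 0.07, adjusted p = 0.56). *Elovl5*, which lengthens polyunsaturated fatty acids, stood the other way, at 10.81, 10.67 and 10.70 in *Igf1*-/- lungs and 10.98, 10.86 and 10.88 in *Igf1*+/+ lungs. No values overlapped, and the difference was -0.18 (SE 0.08, adjusted p = 0.38). Thus the desaturases and the elongase of the same route differed in sign, and the difference between them was not tested.

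The other desaturases and elongases had values that overlapped between genotypes. *Scd1*, which makes oleic from stearic acid, was 12.13, 11.82 and 11.49 in *Igf1*-/- lungs and 11.72, 11.89 and 11.59 in *Igf1*+/+ lungs, a difference of 0.08 (SE 0.15) that was -0.20 over the mean of its probe sets. *Scd2*, its paralogue, was 13.05, 12.94 and 12.84 in *Igf1*-/- lungs and 12.83, 12.90 and 13.00 in *Igf1*+/+ lungs, and its difference of 0.04 turned below 0 after quantile normalization of the 6 lung arrays. *Elovl1*, an elongase of saturated chains, was 10.38, 10.10 and 10.21 in *Igf1*-/- lungs and 10.29, 10.08 and 10.18 in *Igf1*+/+ lungs. *Elovl6*, which makes stearic acid, was 6.61, 6.75 and 6.92 in *Igf1*-/- lungs and 6.88, 6.88 and 6.79 in *Igf1*+/+ lungs. The differences of *Elovl1* and *Elovl6* were 0.05 and -0.09.

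In fatty acid activation and phospholipid synthesis, *Pcyt1a*, the rate-limiting enzyme of phosphatidylcholine synthesis, was 8.96, 8.93 and 8.81 in *Igf1*-/- lungs and 8.86, 8.64 and 8.63 in *Igf1*+/+ lungs. *Igf1*+/+ replicate 1 lay above the lowest *Igf1*-/- value, and the difference was 0.19 (SE 0.09, adjusted p = 0.42). *Acsl4*, which activates polyunsaturated fatty acids, was 8.60, 8.03 and 8.33 in *Igf1*-/- lungs and 8.64, 8.64 and 8.14 in *Igf1*+/+ lungs, a difference of -0.15 that was -0.01 without *Igf1*-/- replicate 2. *Gpam*, which starts glycerolipid synthesis, had a difference of 0.05, and the choline kinase gene *Chka* one of 0.09.

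The further probe sets of these genes did not all have the sign of the brightest. In all, 69 probe sets named a single gene of the list, 21 genes had several, and in 11 of these the signs differed. *Srebf2* had a difference of -0.08 at the brighter and 0.08 at the dimmer probe set, and *Mvd* -0.03 and 0.12. The dimmer probe sets of *Insig2* kept its sign, at -0.05 and -0.30, as did those of *Hmgcs1*, at -0.25, -0.20 and -0.18. An unadjusted p under 0.05 in limma was found for 6 of the 69, or 8.70%, against 12.5% of all mouse probe sets. *Elovl5* had a further probe set with a difference of -0.20 and groups that did not overlap. The dimmer probe set of *Scd1* was 7.98, 7.36 and 7.17 in *Igf1*-/- lungs and 7.96, 7.97 and 8.02 in *Igf1*+/+ lungs, a difference of -0.48 (SE 0.18, adjusted p = 0.33) against 0.08 at the brighter one. That of *Fads2* was 7.47, 7.39 and 7.43 against 6.83, 7.09 and 7.51, a difference of 0.29 with groups that overlapped. The dimmer probe sets of *Acsl4* had differences of -0.11 with groups that overlapped and of -0.28 without overlap (adjusted p = 0.74 and 0.28), and the 3 further ones of *Pcyt1a* had differences of -0.05, 0.03 and 0.09. Some brightest probe sets, that of *Elovl5* among them, carry the suffix that Affymetrix gives to probes shared with other transcripts.

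**Figure D4:**
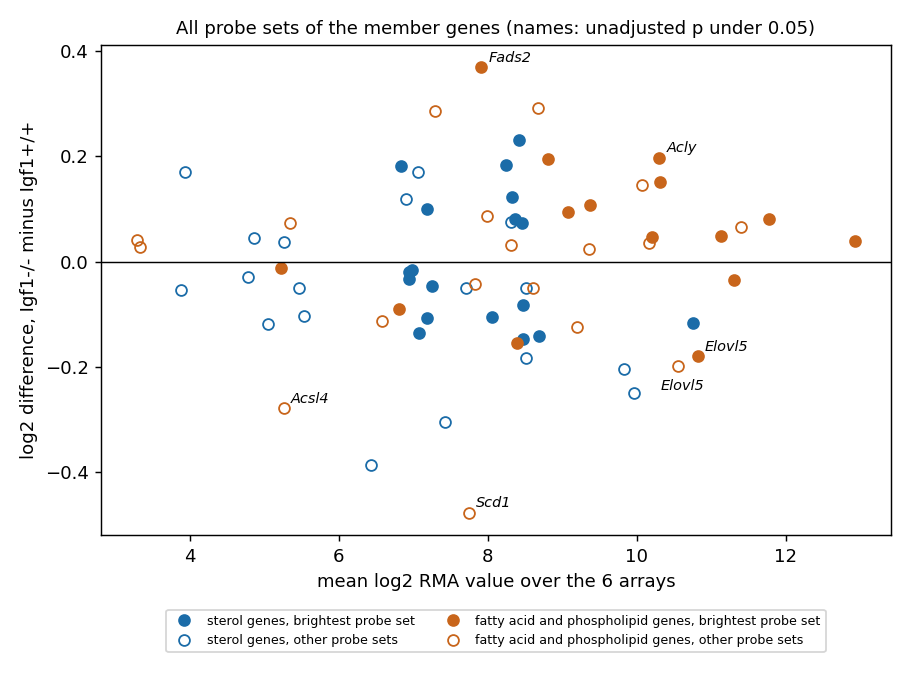
Log2 difference (*Igf1*-/- minus *Igf1*+/+, vertical axis) of the 69 probe sets of the 33 genes against their mean log2 value over the 6 arrays (horizontal axis), filled for the brightest probe set of a gene and open for the others. Names mark the 6 with an unadjusted limma p under 0.05, where *Elovl5* appears in 2 probe sets and *Scd1* lies at -0.48 in its dimmer one.

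Other genes of these pathways also gave no call. Of 19 further genes listed under sterol synthesis, uptake and sensing, 13 had higher and 6 lower means in *Igf1*-/- lungs. Among them 0 had an adjusted p under 0.20 and 0 an unadjusted p under 0.05 in limma. Of 40 further genes of fatty acid and glycerolipid synthesis, 24 were higher and 16 lower, 0 had an adjusted p under 0.20 and 6 an unadjusted p under 0.05 (15%, against 12.7% of all genes). *Chpt1*, which completes phosphatidylcholine, was 7.89, 7.93 and 7.67 in *Igf1*-/- lungs and 8.44, 8.27 and 7.96 in *Igf1*+/+ lungs, a difference of -0.39 (SE 0.13, adjusted p = 0.27). *Hacd3*, a dehydratase of fatty acid elongation, was 10.86, 10.65 and 10.62 in *Igf1*-/- lungs and 10.43, 10.38 and 10.51 in *Igf1*+/+ lungs, a difference of 0.27 (SE 0.09, adjusted p = 0.27). Both had groups without overlap. *Pparg*, the lipid-responsive nuclear receptor gene, and *Cdipt*, of phosphatidylinositol synthesis, had differences of -0.28 and -0.27 (adjusted p = 0.37 and 0.34).

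Cells that use these pathways were followed by their markers. Of 9 type II cell genes measured, 7 had higher means in *Igf1*-/- lungs and 0 had an adjusted p under 0.10. An unadjusted limma p under 0.05 was found for 5 of them, 4 higher and 1 lower, against 12.7% of all genes. Their summed linear value ran from 51909 to 58030 in *Igf1*-/- lungs and from 49611 to 54424 in *Igf1*+/+ lungs. All 6 type I cell genes had lower means and 2 fell, among them the water channel gene *Aqp5* with a difference of -0.98 (SE 0.12, adjusted p = 0.017). Of 6 lipofibroblast genes 5 had lower means and 0 passed, with sums of 8783 to 9839 and 9572 to 10614. Of 6 adipocyte genes 5 had higher means and 0 passed, with sums of 266 to 314 and 311 to 354. The fatty acid carrier gene *Fabp4* had a difference of -0.68 (adjusted p = 0.17), and *Adipoq*, *Ucp1* and *Lep* were below the lower quartile of all mouse probe sets in all 6 arrays. Of 8 leukocyte genes 7 had higher means and 1 rose, with sums of 4592 to 5952 and 3471 to 3880. In these other lists an unadjusted limma p under 0.05 was found for 5 type I, 3 lipofibroblast, 1 adipocyte and 6 leukocyte genes. The part of these cells in the values of the 33 genes was not tested.

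The counts of higher and lower sterol genes depended on single arrays. Without *Igf1*-/- replicate 2, which carried the liver genes, 15 of 18 sterol genes had a higher mean in *Igf1*-/- lungs, with a median difference of 0.07, and without *Igf1*+/+ replicate 3 it was 13. With the other arrays left out in turn it was between 6 and 9. The difference changed sign with at least 1 array left out in 11 of the 18 sterol genes and in 5 of the 15 others. The fatty acid and phospholipid genes with a higher mean were 7 to 11 of 15, and 10 without *Igf1*-/- replicate 2. No gene reached an adjusted p under 0.10 with any array left out. Without *Igf1*+/+ replicate 3, *Fdps*, *Acly* and *Fads2* passed an adjusted p of 0.20, at a setting where 12.8% of all probe sets did, and with arrays weighted by quality *Fads2* did (10.3% of all).

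**Figure D5:**
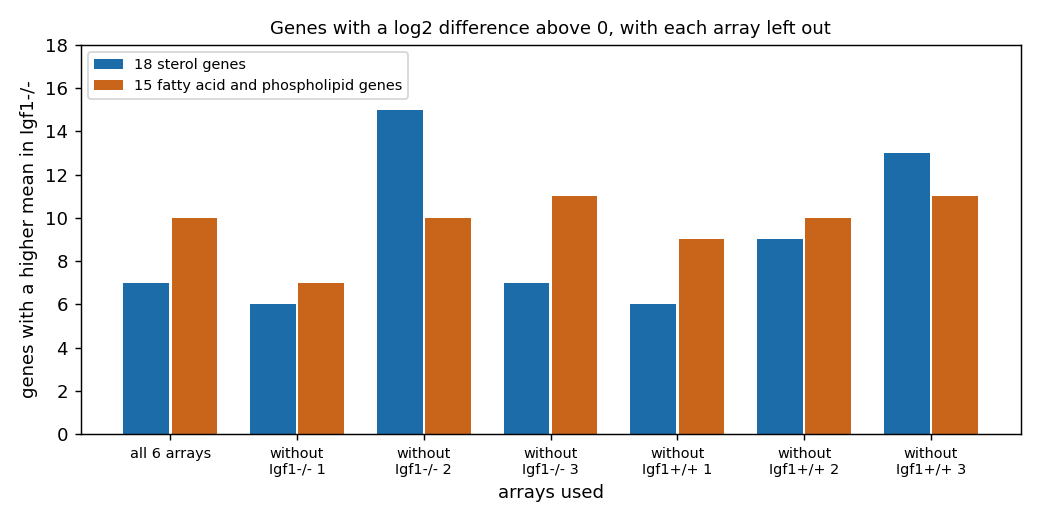
Number of genes with a higher mean in *Igf1*-/- lungs (vertical axis) among 18 sterol and 15 fatty acid and phospholipid genes, with all 6 arrays and with each array left out. The sterol count goes from 7 to 15 without *Igf1*-/- replicate 2 and to 13 without *Igf1*+/+ replicate 3, and the other count stays between 7 and 11.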

How the data were processed

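The authors deposited log2 values from RMA, run on the 6 lung arrays together with 6 cochlear ones. The RMA version is not named in the sources used here. The scans were not used here. Genotype and replicate number were taken from the labels, and no batch is named. Of 22690 probe sets, 64 controls were left out. Of the 22626 others, 20380 have 1 symbol in the platform annotation, 691 several and 1555 none. A linear model with genotype as the only term was fitted with limma 3.58.1 in R 4.3.3, with empirical Bayes variances and Benjamini-Hochberg adjustment over all mouse probe sets. SAM, which the study used, was not run. The genes and lists were chosen with earlier results of these data known. Values in every array are given for the regulators, genes with an unadjusted p under 0.05 or an adjusted p under 0.20, the 2 largest differences of each role, and the paralogues. Of the other pathway genes, those past 0.20 and up to 4 of each list with the largest differences among p under 0.05 could be named, and genes outside the rule were named after their values were seen. Summed marker values are sums of 2 to the power of the log2 value. Groups do not overlap when the lowest value of 1 genotype exceeds the highest of the other. The smallest exact permutation p of 3 against 3 is 0.1. Alternatives were quantile normalization, centring, no dim probe sets, variance trend, array weights, the mean of a gene's probe sets, other thresholds, a replicate block and leaving out each array. The fit was tested on simulated data. The number of arrays limits the precision.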

Additional observations from a re-analysis of the deposited data

How the results depend on the processing

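At an adjusted p under 0.10 the count of probe sets over the whole array was 126, and it was 204 with a variance trend, 628 with array weights, 588 at 0.20, 54 at 0.05 and 45 to 710 with 1 array left out, highest without *Igf1*+/+ replicate 3. None of the 33 genes passed 0.10 under any of these settings. The deviations of arrays with the same replicate number were not positively correlated (-0.04, -0.23 and -0.14), which cannot show whether the numbers mark pairs. With the number as a replicate block the count was 138 and 0 of the 33 genes passed. The sterol median ran from -0.12 to 0.07 and the fatty acid and phospholipid median from -0.013 to 0.090 with 1 array left out, and the latter was 0.0032 with the mean of a gene's probe sets. Over all 33 genes, 26 of 198 differences with 1 array left out changed sign, in 16 genes, among them *Cyp51* (-0.30 to 0.14), *Msmo1* (-0.18 to 0.20) and *Sqle* (-0.17 to 0.26). For the 19 genes given in every array by the rule, 11 of 245 values over all settings reversed. With 1 array left out, *Srebf2* ran from -0.17 to 0.037 (highest without *Igf1*+/+ replicate 3), *Hmgcs1* from -0.28 to 0.096 (highest without *Igf1*-/- replicate 2) and *Fasn* from -0.10 to 0.079 (highest without *Igf1*-/- replicate 3). *Scd1* ran from -0.080 to 0.24, *Scd2* from -0.015 to 0.090 and *Elovl1* from -0.027 to 0.11, each lowest without *Igf1*-/- replicate 1, and *Scd2* was -0.00086 without *Igf1*+/+ replicate 1 and *Elovl1* -0.0041 without *Igf1*+/+ replicate 2. *Scd1* was -0.20 and *Scd2* -0.0067 with the mean of their probe sets, and *Scd2* was -0.0019 after quantile normalization. The cause was not tested, except that leaving out an array leaves fewer samples. Signal near background limits the dim probe sets.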
